A study of Mus musculus with 8 samples.

Results

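The genes described here encode 5 CCAAT/enhancer-binding proteins (C/EBP; Cebpa, Cebpb, Cebpd, Cebpe and Cebpg) and the factors PU.1 (Spi1) and RUNX1 (Runx1), which set the myeloid fate of blood cells. They were taken as every array probe whose transcript maps to one of these 7 symbols, which gave 8 of 55681 non-control probes and 7 of the 21154 genes that could be given a symbol. Each gene had 1 probe except Runx1, which had 2. Messenger RNA was measured on 8 single-colour Agilent arrays in BV-2, a microglial line of the mouse that a retrovirus carrying oncogenes made immortal, so that all groups stand for 1 continuous line and not for microglia of different animals. There were 4 groups of 2 arrays, all from cells harvested 24 h after treatment. The groups were cells given lipopolysaccharide (LPS, 1 µg/mL) together with HF, the hexane fraction made from Amauroderma rugosum, a mushroom (100 µg/mL), cells given LPS alone, cells given HF alone, and control cells given neither. The study asks how HF alters LPS-stimulated microglial cells.

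C/EBP proteins are basic leucine zipper factors that bind DNA as dimers with each other and with other leucine zipper proteins. C/EBPα and C/EBPε act during the formation of granulocytes and monocytes, C/EBPβ and C/EBPδ are induced by inflammatory signals and activate acute-phase and cytokine genes in macrophages, and C/EBPγ, which lacks an activation domain, works through its partners. PU.1, an ETS factor, and RUNX1, which binds DNA with the partner CBFβ, open and hold the enhancers of macrophage genes, microglia included.

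All levels below are log2 processed signals relative to the 75th percentile of the same array, so a level of 0 is the brightness that 75% of probes do not exceed. Levels of different probes are not comparable, because each probe has its own brightness. A probe counts as well above background by the scanner software's own mark. Differences come from 1 limma fit of the 4 group means over 22460 genes, each with a standard error (SE) that pools the spread over all arrays, and passing means an adjusted p (Benjamini-Hochberg) under 0.05. The labels call the arrays biological replicates without saying that they came from separate cultures, so the p-values measure only the spread between these arrays. RNA came from whole cultures, so fewer cells that express a gene and less RNA per cell cannot be told apart.

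Control replicate 1 was uneven: spots of the same probe varied on it with a median coefficient of variation of 48.9%, while this was 3.77% to 8.06% elsewhere, and the scanner's report marked it and HF replicate 1 for evaluation. That report also marked the grid of spots as not good on control replicate 1 and as good on every other array. Whether spots were misplaced on it was not tested. Over all genes, the SD of the difference between the 2 arrays of a group was 0.34 log2 for LPS+HF, 0.28 for LPS, 0.49 for HF and 0.99 for control. Results that rest on control replicate 1 are therefore given also without that array, and after a spatial correction that evened out local brightness on every array and masked 11.9% of the spots of this one. The 4 arrays with HF lay in the other row of the slide from the 4 without, and the arrays with and without LPS lay in different columns, so slide position and treatment cannot be told apart. The 75th percentile of brightness was 346 to 527 on arrays with HF and 247 to 286 on those without. All 10 macrophage markers looked up, among them Csf1r, Itgam and Adgre1, were well above background on all 8 arrays. Among markers of resident microglia, Tmem119 and Siglech were above background on all 8 arrays, P2ry12 on 5, Cx3cr1 on 6 and Sall1 on none.

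Stretches of 250 bases before the transcription start are shown for 3 genes: Cebpb and Cebpg, whose highest level was in both cases on the LPS arrays and lower with HF, and Cebpa, which lies on chromosome 7 with 2 annotated genes between it and Cebpg and whose group means, from 1.48 to 1.82, spanned the narrowest range of the C/EBP genes. They come from the RefSeq promoter table of the mouse build GRCm38.p6, in which 4 of the 7 genes were found. The Cebpb stretch is chr2:167688665-167688914 (plus strand, 81.6% G or C), the Cebpg stretch chr7:35056567-35056816 (minus strand, 70.8%) and the Cebpa stretch chr7:35119043-35119292 (plus strand, 66.4%), each written 5′ to 3′ along its gene. Capitals mark matches to any of 6 short motifs searched on both strands.
Cebpb: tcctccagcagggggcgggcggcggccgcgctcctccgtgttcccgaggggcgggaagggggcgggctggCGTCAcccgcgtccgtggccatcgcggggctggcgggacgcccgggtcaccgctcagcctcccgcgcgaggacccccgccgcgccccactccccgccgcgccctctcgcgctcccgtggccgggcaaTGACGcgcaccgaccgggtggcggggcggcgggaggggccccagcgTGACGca
Cebpg: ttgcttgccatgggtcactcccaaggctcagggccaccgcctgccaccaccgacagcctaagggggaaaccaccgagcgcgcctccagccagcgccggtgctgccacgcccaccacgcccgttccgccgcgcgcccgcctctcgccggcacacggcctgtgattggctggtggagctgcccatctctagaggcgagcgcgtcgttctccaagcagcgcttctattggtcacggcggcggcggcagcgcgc
Cebpa: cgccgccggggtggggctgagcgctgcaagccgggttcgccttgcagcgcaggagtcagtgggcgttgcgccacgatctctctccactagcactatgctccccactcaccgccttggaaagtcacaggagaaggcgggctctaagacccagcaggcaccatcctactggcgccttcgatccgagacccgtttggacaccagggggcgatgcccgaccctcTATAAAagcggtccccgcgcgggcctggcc
Cebpb held TGACG, the core of a cyclic AMP response site, 3 times, of which 2 lie on the gene's own strand, at 53 to 49 and 7 to 3 bases before the start, and 1 on the other strand, at 180 to 176 bases. That motif occurs in 17.8% of the 32851 promoters of this length in the table. Cebpa held TATAAA, the TATA box, at 30 to 25 bases before the start, as do 12.4% of promoters somewhere in this window. Cebpg, and both promoters listed for Runx1, held none of the 6 motifs. The other 4 motifs were in none of the stretches examined. The C/EBP motif TTGCNNAA is found in 9.56% of promoters. The composite of ATF4 and C/EBP, TGATGNAA, is found in 3.45%. The RUNX motif TGTGGT is found in 14.1% of them. The PU.1 motif GAGGAAGT is found in 2.44%. No matches overlapped each other, and a match in this window is a description of letters, not of a bound site.

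Over the 7 genes, Cebpd was the 1 that passed in a comparison, and it passed in 3 of the 5 comparisons: it was higher with LPS, higher with LPS+HF than with LPS, and higher with LPS+HF than with HF. In LPS minus control 1 of 7 genes passed, where 11.1% of all genes did. Cebpd was also the 1 of 7 that passed in LPS+HF minus LPS, against 6.25% of all genes, and in LPS+HF minus HF, against 1.28%. For HF minus control limma called 0 of 7 (2 of 7 at an unadjusted p under 0.05), against 0.882% of all genes, and in the interaction of LPS and HF it called 0 of 7 (0 at an unadjusted p under 0.05), against 0.0534%. The arrays of LPS and control cells did not overlap for 6 of the 7 genes and 57.1% of all genes, and those of HF and control cells for 5 of 7 and 46.1%. LPS+HF and LPS arrays did not overlap for 6 of 7 and 73.9%, and LPS+HF and HF arrays for 6 of 7 and 53.3%. LPS+HF minus LPS and LPS minus control share the LPS arrays, and the other comparisons share arrays in the same way, so their values are not independent of each other. The plot of levels by array shows the members in all 4 groups.

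**Figure D1:**
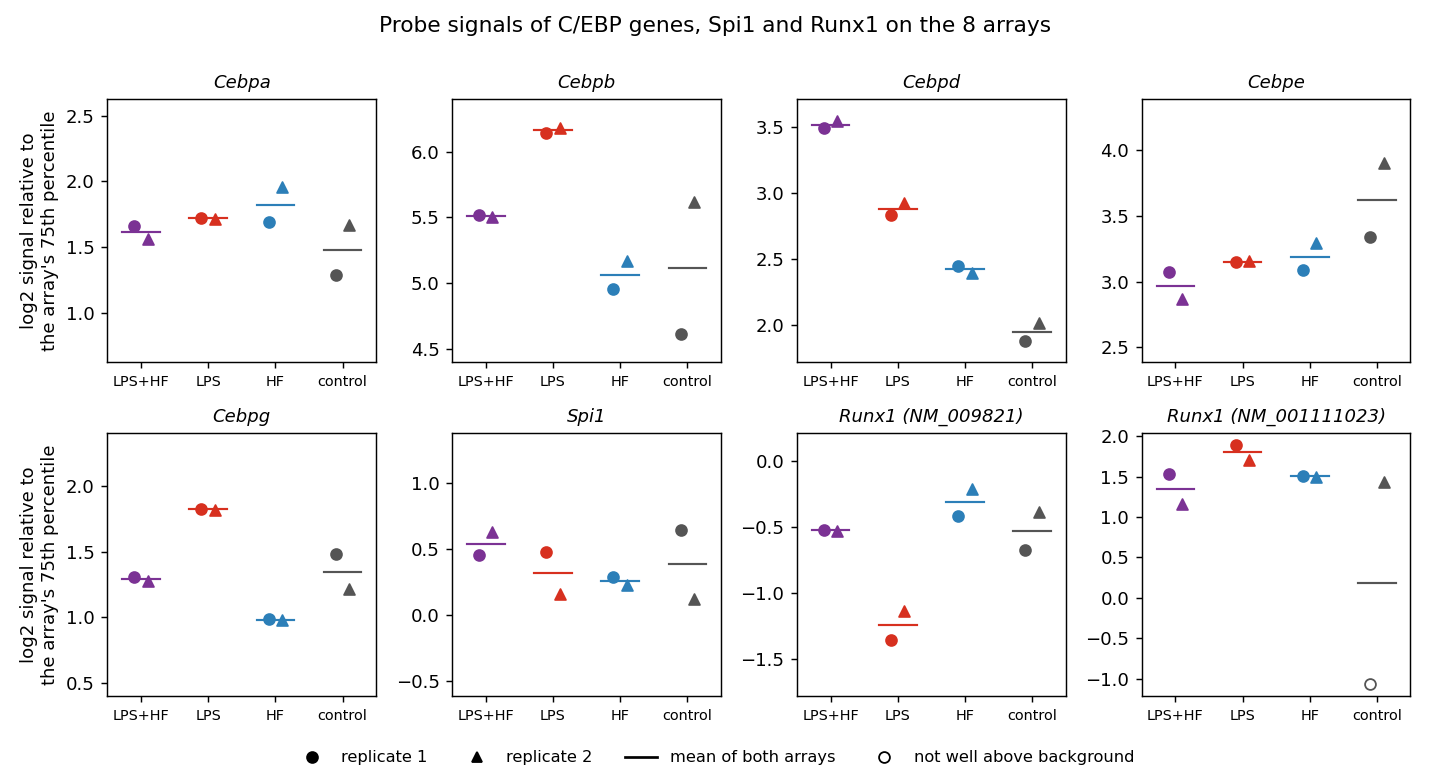
Levels of the 8 probes of the 7 genes (log2 processed signal relative to the 75th percentile of the array, vertical axis) in LPS+HF, LPS, HF and control cells. Each point is 1 array, with circles for replicate 1 and triangles for replicate 2, lines are means of both arrays, and the open circle is a spot not well above background. Cebpd is highest in LPS+HF cells at 3.49 and 3.55, Cebpb and Cebpg are highest in LPS cells, and the brighter Runx1 probe has a single array, control replicate 1, far below the rest.

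Cebpd (NM_007679) encodes C/EBPδ, which Toll-like receptor signalling induces and which sustains cytokine transcription in macrophages. Its levels were 3.49 and 3.55 in LPS+HF cells, 2.83 and 2.92 in LPS cells, 2.45 and 2.40 in HF cells, and 1.88 and 2.01 in control cells. The 4 groups formed 4 separate steps with no overlap, and the arrays of a group lay close to each other in all of them. Cebpd rose 1.91-fold with LPS over control (log2 0.93 ± 0.13 SE, 2 arrays per group, limma adjusted p = 0.012). It rose a further 1.56-fold in LPS+HF over LPS cells (0.64 ± 0.13, limma adjusted p = 0.048), and it rose 2.14-fold in LPS+HF over HF cells (1.10 ± 0.13, limma adjusted p = 0.020). HF alone over control gave 1.39-fold, which did not pass (0.48 ± 0.13, limma adjusted p = 0.16) but did after the spatial correction (0.49 ± 0.11, limma adjusted p = 0.043). The correction hardly moved this difference and lowered its SE, and without control replicate 1 the difference was 0.41. The response of Cebpd to LPS was not shown to depend on HF: the interaction was 0.16 ± 0.19, with a 95% interval of -0.29 to 0.62. The area around its spot on control replicate 1 deviated by only 0.14 log2, and without that array the LPS difference was 0.87 (limma adjusted p = 0.0093). With the arrays left out in turn, the difference of LPS+HF and LPS stayed between 0.60 and 0.69, but its adjusted p ran from 0.0094 to 0.31 and passed in 2 of 8 cases, those without either control array. The difference of LPS+HF and HF likewise stayed between 1.07 and 1.13, with adjusted p from 0.0060 to 0.18, and passed in the same 2 of 8 cases.

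Cebpb (NM_001287738) encodes C/EBPβ, also known as NF-IL6 for its activation of the interleukin 6 gene. Its levels were 5.52 and 5.50 in LPS+HF cells, 6.14 and 6.18 in LPS cells, 4.96 and 5.17 in HF cells, and 4.61 and 5.61 in control cells. LPS arrays were the highest and HF arrays were below both LPS+HF arrays, while the 2 control arrays lay 1 log2 unit apart and bracketed LPS+HF and HF. With all 8 arrays Cebpb passed in no comparison: LPS minus control was 1.05 ± 0.32 (2.07-fold, limma adjusted p = 0.093) and LPS+HF minus LPS was -0.65 ± 0.32 (1.57-fold, limma adjusted p = 0.28). The area of its spot on control replicate 1 was dim by 0.71 log2. After the spatial correction Cebpb was higher with LPS than in control by 0.71 ± 0.12 (1.63-fold, limma adjusted p = 0.0072) and lower with LPS+HF than with LPS by a log2 difference of -0.62 ± 0.12 (limma adjusted p = 0.013). Without control replicate 1 these were 0.55 ± 0.13 (limma adjusted p = 0.041) and -0.65 ± 0.10 (limma adjusted p = 0.013). LPS+HF minus HF was 0.45 ± 0.32 and HF minus control was -0.05 ± 0.32, and neither passed (limma adjusted p = 0.83 and 0.93).

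Cebpb and Cebpd thus lay on opposite sides in LPS+HF minus LPS, with Cebpd higher and Cebpb lower, and on the same side in LPS minus control. The 4 arrays of LPS+HF and LPS cells did not overlap for either gene. This comparison uses no control array, but its adjusted p uses a spread pooled over all arrays, and Cebpb passed with control replicate 1 left out at the same difference of -0.65.

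Cebpg (NM_009884) encodes C/EBPγ, a partner of other C/EBP proteins and of ATF4. Its levels were 1.31 and 1.28 in LPS+HF cells, 1.83 and 1.82 in LPS cells, 0.98 and 0.98 in HF cells, and 1.48 and 1.21 in control cells. LPS arrays were again the highest and HF arrays the lowest, with LPS+HF arrays inside the range of the control arrays. LPS minus control was 0.47 ± 0.14 (1.39-fold, limma adjusted p = 0.094) and LPS+HF minus LPS was -0.53 ± 0.14 (1.44-fold, limma adjusted p = 0.091). Both missed the threshold with all 8 arrays, and both passed after the spatial correction, at 0.62 ± 0.11 (limma adjusted p = 0.0092) and -0.60 ± 0.11 (limma adjusted p = 0.011). Both also passed without control replicate 1, at 0.61 ± 0.10 (limma adjusted p = 0.016) and -0.53 ± 0.08 (limma adjusted p = 0.012). The area around the Cebpg spot deviated by only 0.08 log2 on control replicate 1, less than on LPS replicate 1 (-0.12) or HF replicate 2 (0.12). HF minus control was -0.37 ± 0.14 and LPS+HF minus HF was 0.31 ± 0.14, and neither passed. Cebpg and Cebpb thus had LPS as their highest group in common.

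**Figure D2:**
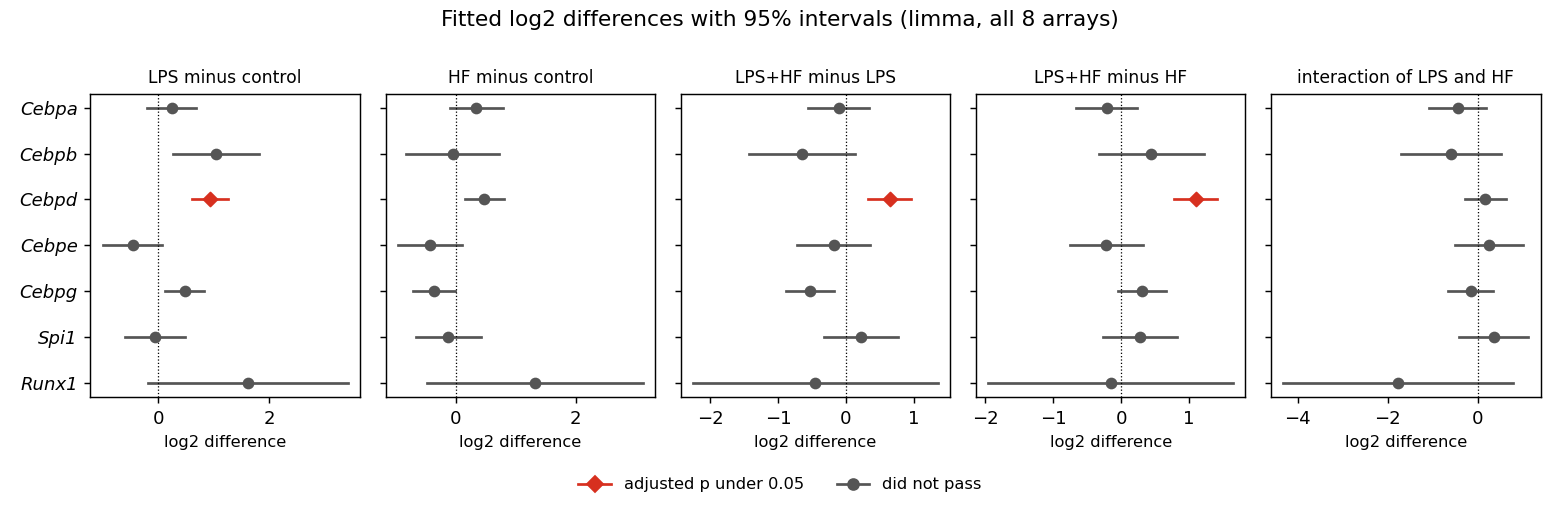
Fitted log2 differences (horizontal axis) of the 7 genes in the 5 comparisons, with 95% intervals from limma over all 8 arrays. Red diamonds passed at an adjusted p under 0.05 and grey circles did not. Cebpd is the gene that passed, at 0.93, 0.64 and 1.10, and the intervals of Runx1 are the widest, from -0.19 to 3.42 in LPS minus control.

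Cebpe (NM_207131) encodes C/EBPε, known for the late maturation of granulocytes. Its levels were 3.07 and 2.87 in LPS+HF cells, 3.15 and 3.16 in LPS cells, 3.09 and 3.29 in HF cells, and 3.34 and 3.91 in control cells. Both control arrays were above all 6 treated arrays, and the LPS arrays lay inside the range of the HF arrays. The difference from control was -0.47 ± 0.22 with LPS (limma adjusted p = 0.21) and -0.43 ± 0.22 with HF (limma adjusted p = 0.32). After the spatial correction, with a local dimming of 0.46 log2 on control replicate 1, Cebpe fell with LPS (-0.73 ± 0.12, 1.66-fold, limma adjusted p = 0.0068) and with HF (-0.60 ± 0.12, 1.52-fold, limma adjusted p = 0.033). Without control replicate 1 it fell with LPS (-0.75 ± 0.15, limma adjusted p = 0.027), and HF minus control was -0.71 ± 0.15 (limma adjusted p = 0.075). LPS+HF minus LPS was -0.18 ± 0.22 and LPS+HF minus HF was -0.22 ± 0.22, with 95% intervals of -0.72 to 0.36 and -0.76 to 0.32.

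Cebpa (NM_007678) encodes C/EBPα, which drives the step to granulocyte and monocyte progenitors. Its levels were 1.66 and 1.56 in LPS+HF cells, 1.72 and 1.72 in LPS cells, 1.69 and 1.96 in HF cells, and 1.29 and 1.67 in control cells. The LPS arrays lay inside the range of the HF arrays and the LPS+HF arrays inside that of the control arrays, and the lowest array, control replicate 1, lay in an area dimmed by 0.40 log2. LPS minus control was 0.24 ± 0.18 (95% interval -0.21 to 0.69) with all arrays and 0.06 ± 0.11 after the spatial correction. LPS+HF minus LPS was -0.11 ± 0.18 (95% interval -0.55 to 0.34). No comparison of Cebpa passed with all arrays, after the spatial correction or without control replicate 1, and the intervals still allow differences of more than 0.3 log2.

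Spi1 (NM_011355) encodes PU.1, without which macrophages and microglia do not form. Its levels were 0.45 and 0.63 in LPS+HF cells, 0.48 and 0.16 in LPS cells, 0.29 and 0.23 in HF cells, and 0.65 and 0.12 in control cells. The values of all 6 treated arrays fell between those of the 2 control arrays. Both LPS+HF arrays lay above both HF arrays, and the LPS arrays overlapped with either group. LPS minus control was -0.07 ± 0.22 (95% interval -0.61 to 0.48), HF minus control -0.13 ± 0.22, LPS+HF minus LPS 0.22 ± 0.22 and LPS+HF minus HF 0.28 ± 0.22, and none passed. The Spi1 spot on control replicate 1 lay in an area that was bright by 0.66 log2, and the 2 differences from control turned positive without that array, at 0.19 with LPS and 0.13 with HF (limma adjusted p = 0.48 and 0.66).

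Runx1 was read by 2 probes, which match different RefSeq transcripts of the gene and disagreed. The brighter one (NM_001111023) gave 1.54 and 1.16 in LPS+HF cells, 1.89 and 1.70 in LPS cells, 1.51 and 1.49 in HF cells, and -1.06 and 1.43 in control cells. The value of -1.06, from control replicate 1, was not well above background and lay in an area dimmed by 2.04 log2, where the spatial correction masked the spot, and the LPS arrays were the highest. Its differences of 1.61 ± 0.74 in LPS minus control and 1.32 ± 0.74 in HF minus control did not pass (limma adjusted p = 0.20 and 0.35), and without control replicate 1 they were 0.37 ± 0.19 and 0.07 ± 0.19. LPS+HF minus LPS was -0.45 ± 0.74 (limma adjusted p = 0.78), with an SE that pools the spread of the control arrays. It was -0.45 ± 0.15 without control replicate 1 and -0.44 ± 0.16 after the spatial correction, and neither passed.

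The dimmer Runx1 probe (NM_009821) gave -0.52 and -0.53 in LPS+HF cells, -1.36 and -1.14 in LPS cells, -0.42 and -0.21 in HF cells, and -0.67 and -0.39 in control cells. Both LPS arrays were below the other 6, which is the reverse of the brighter probe. This probe was not the one chosen for the gene by brightness, and it was examined after the brighter one was seen to lie in a dimmed area. With it in the fit, Runx1 was lower with LPS than in control by a log2 difference of -0.72 ± 0.17 (1.64-fold, limma adjusted p = 0.0499), and LPS+HF minus LPS was 0.72 ± 0.17 (1.65-fold, limma adjusted p = 0.065). After the spatial correction these were -0.76 ± 0.14 and 0.77 ± 0.14 (limma adjusted p = 0.0096 and 0.011), and without control replicate 1 they were -0.86 ± 0.15 and 0.72 ± 0.12 (limma adjusted p = 0.020 and 0.015). When each probe was adjusted over all kept probes, LPS minus control gave an adjusted p of 0.054 for this probe. Whether the probes read different transcripts in these cells was not tested.

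**Figure D3:**
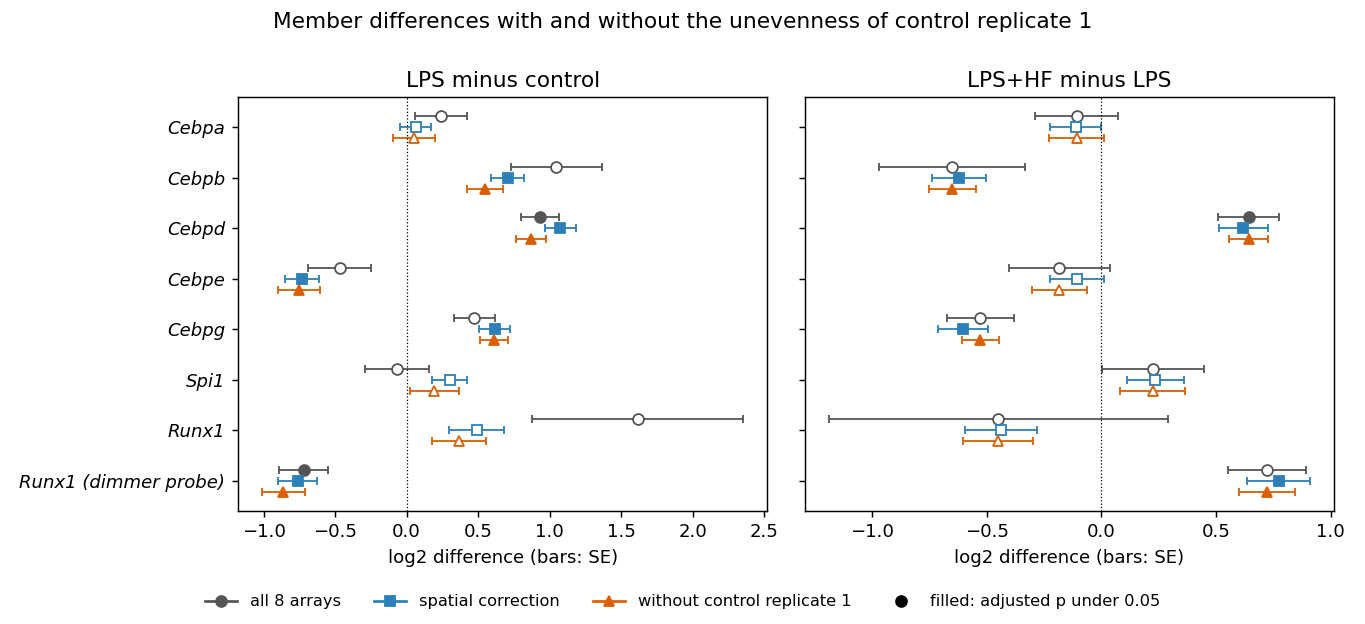
Log2 differences with SE bars of the 7 genes and of the dimmer Runx1 probe in LPS minus control and LPS+HF minus LPS, with all 8 arrays (grey circles), after the spatial correction (blue squares) and without control replicate 1 (orange triangles). Filled symbols passed at an adjusted p under 0.05. In LPS minus control, Cebpb, Cebpg and Cebpe pass after the correction and without control replicate 1 but not with all 8 arrays, and the 2 Runx1 probes lie on opposite sides of 0.

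The count of genes that passed moved with the control arrays. In LPS minus control it was 4 of 7 after the spatial correction (Cebpb, Cebpd, Cebpe and Cebpg), where 27.8% of all genes passed, and the same 4 without control replicate 1, where 20.3% did. It was 3 of 7 in LPS+HF minus LPS (Cebpb, Cebpd and Cebpg), against 27.6% of all genes after the correction and 29.2% without that array. In HF minus control it was 2 of 7 after the correction (Cebpd and Cebpe, against 9.65% of all genes), while limma called 0 of 7 without control replicate 1, against 2.28%. Cebpd was the 1 of 7 in LPS+HF minus HF under both, where 4.79% and 3.95% of all genes passed. Leaving out the other control array, replicate 2, sets the treated arrays against the uneven array alone: 4 of 7 genes (Cebpb, Cebpd, Cebpg and Runx1) and 52.7% of all genes then passed in LPS minus control, and 5 of 7 genes and 45.3% of all genes in HF minus control. Without LPS replicate 1 or without LPS replicate 2, limma called 0 of 7 in LPS minus control (against 0.819% and 0.779% of all genes), in LPS+HF minus LPS (0% in both cases) and in LPS+HF minus HF (0.592% in both cases).

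Of 24 listed genes whose proteins pair with C/EBP factors or control their level, the messenger RNA of 22 was measured. In LPS minus control 4 rose, 2 fell and 16 did not pass, where 11.1% of all genes passed. The median difference was 0.50 against -0.08 over all genes. Batf, a leucine zipper partner, was below background in control and rose at least 43.2-fold (limma adjusted p = 0.0004); here and below, "at least" sets the brighter group against the dimmest signal that counted as above background, or against the dim probe's own where that was higher. Ddit3, encoding CHOP, a stress-induced C/EBP relative that blocks DNA binding of its partners, rose 12.2-fold (3.61 ± 0.22, limma adjusted p = 0.0013). Trib1, whose protein directs C/EBPα to degradation, fell 1.98-fold (-0.99 ± 0.20, limma adjusted p = 0.034), and Nfil3 fell 1.66-fold (-0.73 ± 0.13, limma adjusted p = 0.022).

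With HF added to LPS, 3 partner genes rose, 3 fell and 16 did not pass (median -0.17 against -0.07 over all genes). In this comparison 6.25% of all genes passed. Trib1 rose 4.46-fold (2.16 ± 0.20, limma adjusted p = 0.011) and Fos, an AP-1 subunit, rose 4.09-fold (2.03 ± 0.22, limma adjusted p = 0.012). Ddit3 fell 13.2-fold (-3.73 ± 0.22, limma adjusted p = 0.0057) and Trib3, a pseudokinase gene that CHOP and ATF4 induce, fell 4.78-fold (-2.26 ± 0.14, limma adjusted p = 0.0066). Trib1 and Ddit3 thus had differences of opposite sign in the 2 comparisons, which share the LPS arrays. After the spatial correction 7 partner genes rose and 3 fell in LPS minus control, where 27.8% of all genes passed. In LPS+HF minus LPS 7 rose and 9 fell after it, where 27.6% of all genes passed. Without control replicate 1 the median of the partner genes in LPS minus control was 0.17. Without control replicate 2 the median of the partner genes in LPS minus control was 0.71. In HF minus control 1 of the 22 passed, Trib3, which fell, against 0.882% of all genes. In LPS+HF minus HF 2 rose and 0 fell, against 1.28% of all genes.

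Of 23 relatives and partners of PU.1 and RUNX1, 18 were measured. With LPS over control 1 rose, 3 fell and 14 did not pass (median -0.17), where 11.1% of all genes passed. The median of these relatives and partners was -0.38 without control replicate 1 and -0.0037 without control replicate 2. Spic, the PU.1 relative known for red pulp macrophages, rose 38.9-fold (5.28 ± 0.26, limma adjusted p = 0.00061). Lmo2 and Lyl1, parts of a blood progenitor complex, fell 2.30-fold and 2.25-fold (limma adjusted p = 0.012 and 0.021). With HF added to LPS, 3 of the 18 rose and 1 fell, against 6.25% of all genes (median -0.03, and up to 0.02 with arrays left out in turn). Spic fell 5.37-fold (-2.42 ± 0.26, limma adjusted p = 0.012) and Ikzf1, encoding Ikaros, rose 2.14-fold (1.10 ± 0.13, limma adjusted p = 0.013). Myb, below background with LPS, rose at least 1.13-fold (limma adjusted p = 0.023). The third that rose was Cbfb, the DNA-binding partner of RUNX1, at 1.65-fold (0.72 ± 0.14, limma adjusted p = 0.044), and it is named although the naming rule did not pick it.

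Of 25 other transcription factors of macrophages and microglia, 22 were measured. LPS over control gave 4 rises and 4 falls (median 0.18), where 11.1% of all genes passed. The median of these factors was -0.03 without control replicate 1, and 0.18 and 0.17 without LPS replicate 1 and 2. Myc was below background in control and rose at least 3.87-fold (limma adjusted p = 0.0082), and Rxra, a nuclear receptor, rose 2.88-fold (1.53 ± 0.24, limma adjusted p = 0.016). Egr2, a zinc finger factor of alternatively activated macrophages, fell 8.91-fold (limma adjusted p = 0.014) and Nr4a1, an orphan nuclear receptor, fell 3.13-fold (limma adjusted p = 0.0070). Against LPS alone, 2 rose and 2 fell with LPS+HF (median -0.14), where 6.25% of all genes passed. Egr2 rose 6.44-fold and Nr4a1 4.67-fold (limma adjusted p = 0.034 and 0.0091), and Rxra fell 3.05-fold and Bhlhe41 1.95-fold (limma adjusted p = 0.023 and 0.026). The Egr2 spot on control replicate 1 lay in an area bright by 1.41 log2, and its LPS difference was -2.47 after the spatial correction, against -3.15 before.

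C/EBP targets known from macrophages and granulocytes were measured for 23 of 28 genes. This list, like the others, was chosen with earlier results of these data known, so its counts and medians are a description only. With LPS over control 14 rose, 3 fell and 6 did not pass, where 11.1% of all genes passed. The median was 1.92 against -0.08 over all genes. Lcn2, the iron-trapping lipocalin, rose 202-fold (7.66 ± 0.20, limma adjusted p = 0.00012) and Il6 rose at least 56.3-fold from below background (limma adjusted p = 0.00016). Arg1, the arginase of alternative activation, fell 159-fold (-7.31 ± 0.42, limma adjusted p = 0.0011), and Il6ra, a chain of the interleukin 6 receptor, fell 2.72-fold (limma adjusted p = 0.030). Of the 23, 0 rose, 12 fell and 11 did not pass in limma in LPS+HF minus LPS (16 had an unadjusted p under 0.05), against 6.25% of all genes. Their median was -1.20. Ccl5, a chemokine, fell 8.50-fold (-3.09 ± 0.28, limma adjusted p = 0.0099) and Il6 fell 8.04-fold (-3.01 ± 0.22, limma adjusted p = 0.0080). Cebpd was higher in the same comparison, by 0.64, and Cebpb was -0.65.

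With LPS+HF against HF, 11 of the C/EBP targets rose and 1, Arg1, fell, with a median of 1.57, where 1.28% of all genes passed. In HF minus control, where 0.882% passed, 0 rose and 3 fell in limma (10 had an unadjusted p under 0.05), with a median of -0.52. That median was -0.20 without HF replicate 2 and -0.38 after the spatial correction, where 1 rose and 7 fell and 9.65% of all genes passed. The correction left 14 higher and 3 lower in LPS minus control, where 27.8% of all genes passed. In LPS+HF minus LPS 4 were then higher and 13 lower, where 27.6% passed. Without control replicate 1 the median of the C/EBP targets in LPS minus control was 1.91. Many of these genes are also known targets of NF-kB or interferon signals. Among 7 markers of neutrophils, the cells known for C/EBPε targets, Ltf, Ngp and S100a9 were below background on all arrays, and Elane, S100a8 and Camp were above it on all arrays. The summed signal of the 7 markers, as plain ratios to the 75th percentile and not log2, was 6.20 to 7.46 in LPS+HF cells and 7.61 to 9.18 in LPS cells. It was 6.82 to 7.97 in HF cells and 6.50 to 6.68 in control cells. This sum includes the markers below background and weighs each probe by its own brightness. Its part in these counts was not tested.

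All 26 listed PU.1 targets of macrophages were measured. In LPS minus control 6 rose, 3 fell and 17 did not pass (median 0.24), against 11.1% of all genes. In LPS+HF minus LPS 2 rose, 3 fell and 21 did not pass (median -0.36), against 6.25% of all genes. Msr1, a scavenger receptor, rose 8.37-fold with LPS over control and fell 19.8-fold with LPS+HF against LPS (limma adjusted p = 0.0049 and 0.0080). Mpeg1, the pore protein perforin-2, rose 3.81-fold and fell 3.66-fold in the same comparisons (limma adjusted p = 0.0046 and 0.011). Cx3cr1, the fractalkine receptor of microglia, was below background with LPS, at least 4.48-fold lower than in control and at least 3.06-fold higher with LPS+HF than with LPS (limma adjusted p = 0.0014 and 0.0088). After the spatial correction 10 PU.1 targets rose and 6 fell in LPS minus control, where 27.8% of all genes passed. In LPS+HF minus LPS 2 rose and 11 fell after it, where 27.6% passed, while Spi1 itself passed in neither comparison. Without control replicate 1 the median of the PU.1 targets in LPS minus control was 0.15. Without control replicate 2 the median of the PU.1 targets in LPS minus control was 0.029.

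**Figure D4:**
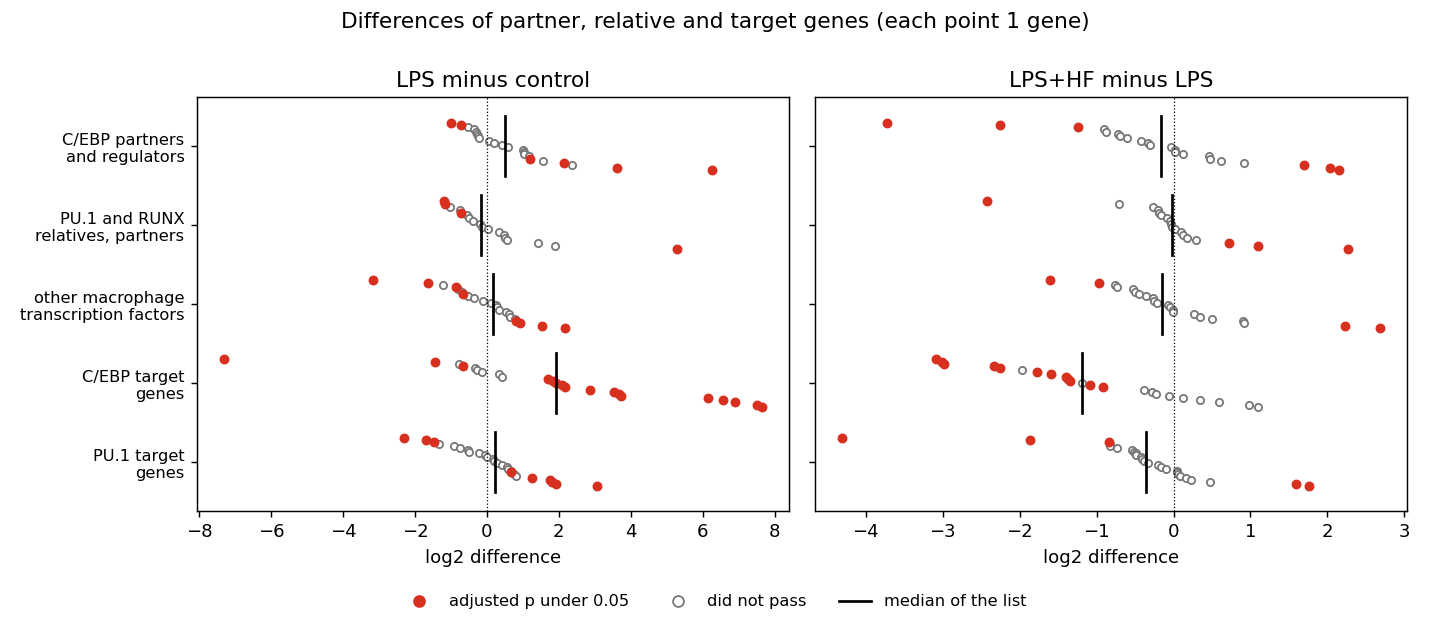
Log2 differences (horizontal axis) of the measured genes of 5 lists, 1 point per gene, in LPS minus control and LPS+HF minus LPS. Red points passed at an adjusted p under 0.05, open points did not, black lines are list medians, and genes below background in 1 group stand at their measured difference. The C/EBP targets have medians of 1.92 and -1.20, while the other lists have medians between -0.36 and 0.50. All lists were chosen with earlier results of these data known, so the contrast between them is not a test.

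Counts over the lists depended on single arrays. In LPS minus control, limma called 0 PU.1 targets higher and 1 lower without LPS replicate 1, and 0 higher and 2 lower without LPS replicate 2 (11 of 26 had an unadjusted p under 0.05 in both cases), while 10 C/EBP targets rose and 1 fell without each of them. For LPS+HF minus LPS, without LPS replicate 1 or 2, 0% of all 22460 genes passed in limma, and none in these 5 lists, although 15 of the 23 C/EBP targets had an unadjusted p under 0.05 without each of them. Without LPS+HF replicate 2, 0.0312% of all genes passed and again none in the lists, with 15 of 23 C/EBP targets at an unadjusted p under 0.05. The median of the C/EBP targets in LPS+HF minus LPS ran from -1.54 to -0.95 with each of the 8 arrays left out in turn.

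Genes with the most similar profile to each member were looked up by Pearson r over the 8 arrays among 12921 genes with a symbol, as a description only, since the 8 points fall into 4 groups and share each array's scaling and unevenness. Cebpd was most like Slc11a2, the iron transporter DMT1 (r = 0.991), Nfkbia, the NF-kB inhibitor IkBα (0.991), and Wnt10a (0.985), and these r were 0.981 or more without control replicate 1. Cebpb was most like Cstb (0.995), the protease inhibitor cystatin B, Babam2 (0.986) and Mtpn (0.985). Cebpg was most like Sgms2 (0.996), a sphingomyelin synthase, Eif4a2 (0.995) and Ms4a6c (0.992). Cebpe was most like Nub1 (0.979), Itgax (0.976), the integrin CD11c, and Sirt5 (0.970), and Cebpa was most like Pcp2 (0.965), Vhl (0.959) and Usp36 (0.959). Spi1 had no gene above 0.95, the closest being Bmper (0.933), Aldh1a3 (0.914) and Tyw3 (0.910). The brighter Runx1 probe was most like Dnajc12 (0.997), Bcr (0.995) and Mertk (0.995), which were among 315 genes above 0.95, and without control replicate 1 the 3 values were 0.934, 0.907 and 0.903.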

How the data were processed

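RNA of 8 BV-2 samples, 2 in each of 4 groups, was labelled with Cy3 and hybridised to Agilent arrays on 1 slide. Spot intensity was read by Agilent Feature Extraction 11.5.1.1, per the file headers, with background subtraction and no scaling between arrays. The deposited series matrix holds log2 values that the authors scaled by 75th percentile and then centred probe by probe at the median: at least 99.9% of probes per array lay within 0.1 of that recomputation. The 8 column medians of the matrix ran from -0.11 to 0.19.

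The log2 of the processed signals was averaged over a probe's unflagged spots, less the 75th percentile of the array. The filter asked for both arrays of some group to be well above background (30342 probes). All 8 probes of the 7 genes were kept, and each gene was represented by its brightest kept probe. Of 55681 probes, 28026 (50.3%) had a symbol by their RefSeq or Ensembl transcript, and 13802 of the 22460 genes tested had one.

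Group means were fitted with limma 3.58.1 in R 4.3.3 over all 8 arrays (4 residual and 2.04 prior degrees of freedom), two-sided, adjusted over all genes. In the spatial correction, the mean of the 6 arrays that the scanner's report passed served as standard, the local median gap to it was subtracted in windows of 30 rows and 15 columns, and a mask removed spots dimmed more than 4-fold. The normexp correction (offset 50) used median spot and background brightness, since the scanner output held no mean brightness. The fit was also run on simulated data, in which all genes had the same independent noise within a group. These did not copy the local unevenness of control replicate 1, so that run cannot show how the fit handles it. Python 3.11.15 was used with pandas 2.3.3, numpy 2.4.6 and, for plots, matplotlib 3.10.9.

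The 7 genes, the lists and the naming rule were chosen with earlier results of these data known. The rule names all 7 genes, the 3 closest profiles of each, and from each list the 2 largest rises and 2 largest falls that passed in LPS minus control, and likewise for LPS+HF minus LPS. Of the genes so picked, 1 is not reported here. Pparg and Csf3r stand in 2 lists each. The alternatives were other background corrections, scalings, filters, probe choices and variance models, the authors' matrix, the replicate number as a block, fewer arrays, and, added after the data were seen, the dimmer Runx1 probe. No block for slide or scan was run, since there was 1 slide. With 2 arrays per group, the number of arrays limits the precision. No labelled sample was left out.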

Additional observations from a re-analysis of the deposited data

How the results depend on the processing

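Over the 35 differences (7 genes in 5 comparisons) and their alternatives, 733 values in all, 644 kept direction and side of the threshold, 28 no longer passed, 30 newly passed and 31 changed sign. None of the sign changes was between values that both passed, and the cause was not tested. Cebpd kept its sign in LPS minus control, LPS+HF minus LPS and LPS+HF minus HF under every alternative run. The count of genes that passed, 1 of 7 in LPS minus control with all 8 arrays, was 0 with the normexp correction, median scaling, no filter on dim probes or only the arrays compared, 2 with probes above background on all arrays or the dimmer Runx1 probe, 4 after the spatial correction or without both marked arrays, and 0 to 4 with arrays left out in turn. In HF minus control (0 of 7) it was 2 after the spatial correction and 0 to 5 with arrays left out. In LPS+HF minus LPS (1 of 7) it was 0 with normexp, quantile normalization, median scaling, no filter, each probe on its own or the replicate block, 2 with probes above background on all arrays, 3 with only the arrays compared, after the spatial correction or without both marked arrays, and 0 to 3 with arrays left out. In LPS+HF minus HF (1 of 7) it was 0 with normexp, median scaling, no filter or the replicate block, and 0 to 1 with arrays left out. In the interaction (0 of 7) it was 0 to 2, the 2 without control replicate 2. The replicate number is not known to pair arrays: deviations of same-numbered arrays correlated between -0.14 and 0.31 over pairs of groups, and the replicate block changed no other count. Median scaling moved the median of all genes by 0.35, 0.39, 0.15, 0.11 and -0.23 log2 in the 5 comparisons, and quantile normalization by 0.12, 0.11, 0.04, 0.05 and -0.07. Signs changed as follows. With normexp, Cebpa became -0.40 (LPS minus control), -0.29 (HF minus control) and 0.12 (interaction), Runx1 0.0055 (LPS+HF minus HF), and the interactions of Cebpd and Cebpg -0.67 and 0.052. With median scaling, Spi1 became 0.28 (LPS minus control) and 0.26 (HF minus control), Cebpb 0.33 and Cebpg 0.020 (HF minus control), Cebpa 0.044 (LPS+HF minus LPS) and the interaction of Cebpd -0.068, and with quantile normalization Cebpb became 0.033 (HF minus control). Spi1 became 0.30 and 0.19 (LPS and HF minus control) after the spatial correction, and 0.19 and 0.10 without both marked arrays. Runx1 became -0.72 (LPS minus control), 0.72 (LPS+HF minus LPS) and 0.51 (interaction) with the dimmer probe, also when kept probes had to be above background on all arrays, which leaves that one, and 0.14 (LPS+HF minus LPS) as the mean of its probes. With arrays left out in turn, Spi1 ran from -0.33 to 0.19 (LPS minus control) and from -0.39 to 0.13 (HF minus control), Cebpb from -0.55 to 0.45 (HF minus control), Runx1 from -0.34 to 0.034 (LPS+HF minus HF) and Cebpe from -0.035 to 0.53 (interaction). A group reduced to 1 array was given the spread of the other groups. With all 8 arrays, 11.1%, 0.882%, 6.25%, 1.28% and 0.0534% of all genes passed in the 5 comparisons. After the spatial correction these shares were 27.8%, 9.65%, 27.6% and 4.79% in the first 4. Over the alternatives, 0.298% to 52.7% of all genes were called for LPS minus control, 0% to 45.3% for HF minus control, 0% to 32.9% for LPS+HF minus LPS, 0.249% to 4.79% for LPS+HF minus HF and 0% to 35.3% for the interaction, where 35.3% was the share without control replicate 2.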
